A study of Rattus norvegicus with 20 samples.

Results

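Liver RNA from rats given triphenyl phosphate at 110 mg/kg was compared with liver RNA from rats given the vehicle. The comparison used 8 of the 20 expression arrays of the series, 3 from the 110 mg/kg group and 5 from the vehicle group, chosen by the dose in the array titles. Both groups were male Harlan Sprague-Dawley rats gavaged once a day for 4 days with corn oil, which carried triphenyl phosphate at 110 mg/kg (0.338 mmol/kg) in one group and none in the other. Liver was taken on day 5, and each array read 1 sample of the left lobe. The other groups, at 55, 220, 440 and 881 mg/kg, held 3 arrays each and serve here to place the 110 mg/kg values. Neither the rats' age nor the hour of liver collection was stated in the sources used here. The treatment text speaks of 5 dose groups of 3 rats but lists 6 dose levels, and its figure for the next to highest dose differs by 1 mg/kg from the 440 of the titles, so how many rats the 5 vehicle arrays stand for is not settled. Nothing in the labels says that every array came from its own animal. The p-values therefore set each group difference against the spread among these samples only, some of which may be technical. They need not carry over to other animals, and the number of arrays limits the precision.

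Triphenyl phosphate, a phosphate ester with phenyl groups, serves as a plasticiser and flame retardant. The liver oxidises and hydrolyses such compounds, and foreign compounds that activate the nuclear receptors CAR and PXR raise its esterases, cytochrome P450 system, conjugating enzymes and efflux pumps. Liver genes are also under a daily clock, in which the activators BMAL1, CLOCK and NPAS2 drive Per, Cry, Nr1d1, Nr1d2 and Dbp, and the NR1D proteins repress Bmal1. Lipid, sterol and bile acid enzymes follow feeding, hormones and that clock.

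Values are deposited log2 expression levels, and a gene with several probe sets was read from the one of highest mean level across the 20 arrays. The array medians lay between 6.31 and 6.39. The tissue label was checked with 15 measured hepatocyte markers, whose mean level was 13.98 to 14.09 on the 110 mg/kg arrays and 14.01 to 14.10 on the vehicle arrays. Albumin (Alb) averaged 15.35 at 110 mg/kg and 15.34 in vehicle, and none of the 15 was called, where 3.61% of all genes were. The 3′ minus 5′ differences of 3 control genes, a sign of RNA quality, did not separate the groups in an exact two-sided permutation test (p = 0.679 for Gapdh and beta-actin and 0.464 for hexokinase, adjusted p = 0.679 for each, where the smallest p that 56 splits allow is 0.0357). On 881 mg/kg replicate 2, which enters the shared estimate of the spread, the Gapdh difference was 5.24, against 0.81 to 1.28 on the 110 mg/kg arrays and 0.82 to 1.35 on the vehicle arrays.

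At 110 mg/kg, 336 genes rose and 177 fell against vehicle in limma's moderated test over 14217 genes. The largest rise was that of the clock-output gene Dbp, and the largest falls were those of the fatty acid desaturase gene Scd and the taurine transporter gene Slc6a6. A gene was called at a Benjamini-Hochberg adjusted p under 0.05 with no fold filter, and the 513 called genes were 3.61% of those tested, 2.36% rising and 1.24% falling. The changes were mostly small: 33 of the genes that rose and 23 of those that fell changed at least 2-fold, and the median called change was 0.48 among rises and -0.55 among falls (log2). Without adjustment 2375 genes (16.7%) had a p under 0.05. The median over all genes was -0.0046, and the median standard error of a change was 0.10. The 3 arrays at 110 mg/kg lay beyond all 5 vehicle arrays for 327 of the genes that rose and 165 of those that fell, whereas over all genes tested this held for 7.62% upward and 5.28% downward. The 15 largest rises and falls named below were drawn only from called genes of this kind, so their lack of overlap follows from that choice. The split of the calls depended on scaling, with 286 rises and 231 falls when each array was centred on its median, and 305 and 258 when quantile normalization was repeated. Single arrays moved the count by more than 1.5 times: 212 genes were called without 110 mg/kg replicate 1, 321 without replicate 2, 231 without replicate 3 and 300 without vehicle replicate 4, while rises numbered 213 without vehicle replicate 2 and falls 97 without vehicle replicate 3.

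**Figure D1:**
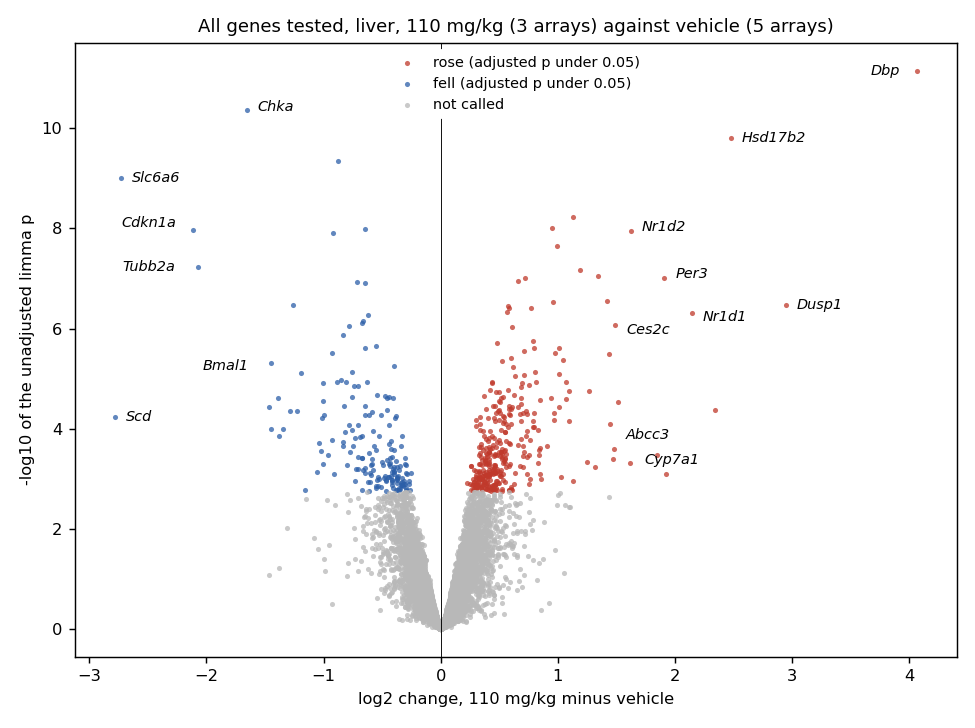
Each point is 1 of 14217 genes. The x axis is the log2 change, 110 mg/kg minus vehicle, and the y axis is -log10 of limma's unadjusted p; the 336 genes that rose are red, the 177 that fell are blue, and Dbp and Scd lie at the right and left ends.

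The circadian clock list held the highest share of called members. Of its 19 measured members 8 rose and 5 fell, against 3.61% of all genes called, and the list's median log2 change was 0.04, with members that moved in both directions. The genes that rose encode repressors and output factors of the clock: Dbp, Nr1d1, Per3, Nr1d2, Bhlhe40, Cry2, Tef and Per1. Those that fell were Bmal1 and Npas2, whose products form the activating complex, Nfil3, a repressor that competes with DBP, and also Cry1 and Rora, the last named after its values were seen. Between 10 and 14 members were called under the alternatives tried. Whether the time of day of liver collection differed between the groups was not tested, since no time is given.

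The promoter windows of 3 of these genes are shown because they hold the letters through which the clock proteins are known to bind DNA. A motif search covered 250 bases before to 50 after the start of transcription, on both strands, for the E-box CACGTG, bound by the BMAL1 complexes, the element TAGGTCA, bound by the NR1D and ROR receptors, and the D-box TTANGTAA, bound by DBP, TEF and NFIL3. Of the 13 called clock genes, 12 had a RefSeq promoter window (build GRCr8). The E-box was in 2 of the 12, Bhlhe40 and Tef, and in 8.94% of the windows of 11700 measured genes. The NR1D and ROR element was in 1 of the 12, Bmal1, and in 1.79% of all windows, and the D-box was in 0 of the 12 and in 1.36% of all windows. Most called clock genes, Dbp and Nr1d1 among them, held none of these motifs in the window. Whether a motif bears on a change was not tested, and 12 windows are too few to compare the shares. The 250 bases before the start are given 5′ to 3′ with the motif in capitals; all 3 genes lie on the plus strand, Bmal1 at chr1:176766078-176766327, Bhlhe40 at chr4:143174200-143174449 and Tef at chr7:115206577-115206826. The motif begins 16 bases before the start in Bmal1, 220 before it in Bhlhe40 and 198 before it in Tef.
Bmal1: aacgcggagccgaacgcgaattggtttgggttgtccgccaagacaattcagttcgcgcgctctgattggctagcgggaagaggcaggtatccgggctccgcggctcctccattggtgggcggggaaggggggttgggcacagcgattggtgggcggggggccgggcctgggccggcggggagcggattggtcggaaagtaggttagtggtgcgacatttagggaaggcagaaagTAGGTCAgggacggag
Bhlhe40: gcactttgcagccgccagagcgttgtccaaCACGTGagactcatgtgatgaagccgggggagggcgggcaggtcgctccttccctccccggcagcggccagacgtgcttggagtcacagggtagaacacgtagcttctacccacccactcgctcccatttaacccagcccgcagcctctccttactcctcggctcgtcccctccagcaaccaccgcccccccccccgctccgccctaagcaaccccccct
Tef: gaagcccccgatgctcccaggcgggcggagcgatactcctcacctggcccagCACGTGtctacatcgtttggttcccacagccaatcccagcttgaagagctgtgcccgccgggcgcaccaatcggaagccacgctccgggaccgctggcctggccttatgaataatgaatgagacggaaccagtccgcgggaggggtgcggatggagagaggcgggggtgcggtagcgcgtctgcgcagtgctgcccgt

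Dbp, a transcription factor that carries the clock's rhythm to metabolic genes, had levels of 10.65, 9.38 and 10.07 on the 110 mg/kg arrays, against 5.80, 6.34, 5.96, 5.97 and 5.73 on the vehicle arrays. Every dosed array lay far above every vehicle array, and replicate 2 was the lowest of the 3. The rise was 16.8-fold (log2 change 4.07 ± 0.27, SE; adjusted p = 9.96e-08). Nr1d1, whose product represses Bmal1, had 9.31, 8.64 and 8.79 at 110 mg/kg, against 6.42, 7.72, 6.66, 6.67 and 6.39 in vehicle, a rise of 2.14 ± 0.29 (adjusted p = 0.000244). Its relative Nr1d2 had 10.26, 9.99 and 10.07 at 110 mg/kg, against 8.14, 9.18, 8.40, 8.38 and 8.32 in vehicle, a rise of 1.62 ± 0.17 (adjusted p = 1.59e-05). For both receptors vehicle replicate 2 stood above the other vehicle arrays and still below every dosed array. Bmal1, whose window above holds the NR1D and ROR element, moved the opposite way with 6.95, 7.28 and 6.75 at 110 mg/kg, against 8.70, 7.90, 8.58, 8.64 and 8.40 in vehicle, and fell by 1.45 ± 0.23 (adjusted p = 0.00136). Vehicle replicate 2 was the lowest of the vehicle arrays for Bmal1. Npas2, which stands in for CLOCK as BMAL1's partner, had 7.54, 7.59 and 7.20 at 110 mg/kg, against 8.83, 8.65, 8.68, 8.72 and 8.74 in vehicle, and fell by 1.28 ± 0.24 (adjusted p = 0.00548).

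Tef, a DBP relative with an E-box in its window, had 9.50, 9.26 and 9.49 at 110 mg/kg, against 8.24 to 8.65 in vehicle (median 8.50). Bhlhe40, a repressor of the same complex that also carries an E-box, had 9.68, 8.77 and 9.85 at 110 mg/kg, against 7.57 to 8.43 in vehicle (median 7.91). Both rose, Tef by 0.95 ± 0.10 (adjusted p = 1.59e-05) and Bhlhe40 by 1.51 ± 0.28 (adjusted p = 0.00438). The Period genes differed in size: Per3 rose by 1.91 ± 0.23 (adjusted p = 8.21e-05) and Per1 by 0.63 ± 0.11 (adjusted p = 0.00383). The other probe set of Per3 measured 0.08 and was not called. Per2, named after its values were seen, was not called on the probe set used (-0.05 ± 0.07), while its other probe set gave 1.46 ± 0.31 (adjusted p = 0.0156 with every probe set tested), so its direction depends on the probe set. The Cryptochrome genes, named after their values were seen, moved apart, Cry2 rising 1.99-fold and Cry1 falling by 0.72 ± 0.18. The other probe set of Cry2 measured a log2 change of 0.03 and was not called. The fall of Cry1 was no longer called without 110 mg/kg replicate 1 (adjusted p = 0.125) or replicate 2 (0.107), or without vehicle replicate 1 (0.055) or 3 (0.065), and that of Rora was lost without any one of the 3 dosed arrays (0.0828 to 0.125) or of vehicle replicates 1 to 3 (0.0615 to 0.0674). The other probe set of Rora measured 0.18 ± 0.10, and the mean of its probe sets gave -0.21 (adjusted p = 0.349), so its fall too depends on the probe set. Clock, the gene of BMAL1's other partner and also named after its values were seen, measured -0.38 ± 0.11 and missed the threshold (adjusted p = 0.065), whereas the mean of its probe sets gave -0.25 (adjusted p = 0.0409).

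**Figure D2:**
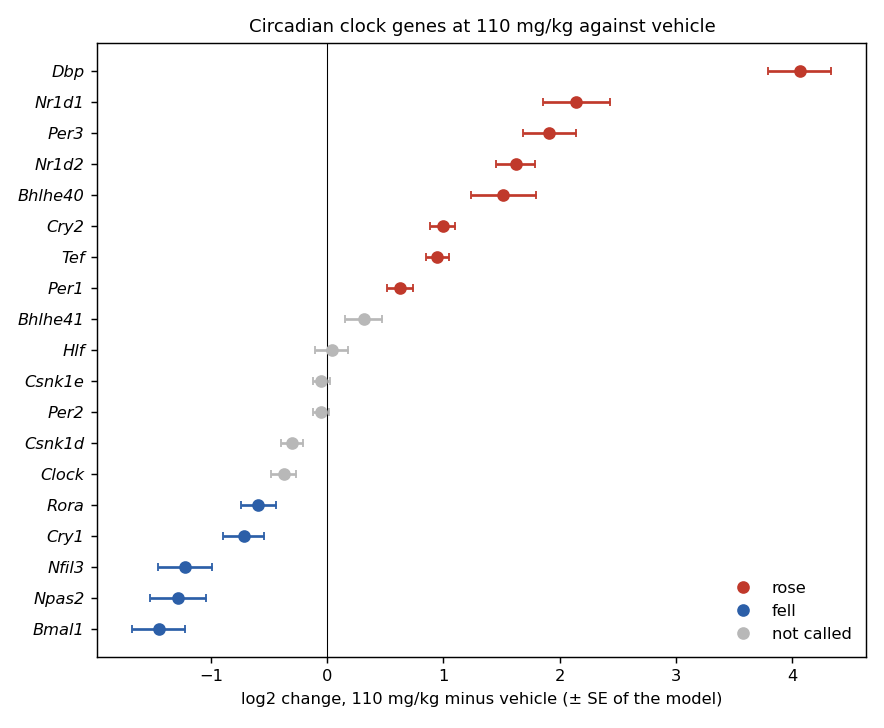
Log2 change, 110 mg/kg minus vehicle, for the 19 measured clock genes, with the standard error of the model as the bar. The 8 genes that rose are led by Dbp at 4.07, and the 5 that fell end with Bmal1 at -1.45.

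Genes of signalling feedback and early response were among the largest rises, with a wide spread over the dosed arrays. Dusp1, a phosphatase that switches off MAP kinases, had 14.13, 11.85 and 12.31 at 110 mg/kg, against 10.47, 10.06, 9.50, 9.60 and 9.45 in vehicle, and rose 7.70-fold (2.94 ± 0.38, adjusted p = 0.000198). Cish, an inhibitor of cytokine signalling that STAT5 induces, had 9.80, 8.73 and 8.76 at 110 mg/kg, against 6.73, 6.79, 6.61, 6.83 and 6.83 in vehicle, and rose 5.06-fold (2.34 ± 0.44, adjusted p = 0.00537). Replicate 1 was the highest of the dosed arrays for both genes. Without replicate 1 the rise of Dusp1 was still called, and that of Cish measured 1.99 with an adjusted p of 0.0503. Gadd45g, a stress-response gene, had 10.79, 10.82 and 9.40 at 110 mg/kg, against 7.47 to 9.28 in vehicle (median 8.48), a rise of 1.93 ± 0.48 (adjusted p = 0.0317). Its lowest dosed array stood just above the highest vehicle array, and the call was lost without 110 mg/kg replicate 1 (adjusted p = 0.142) or 2 (0.142) or without any one of vehicle replicates 1 to 4 (0.0547 to 0.0733).

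Of 23 measured immediate early genes, which growth and stress signals switch on within minutes, 3 rose and 1 fell, with a median of 0.09. Over all genes tested 2.36% rose and 1.24% fell. Besides Dusp1, the transcription factor genes Myc (1.47 ± 0.34, adjusted p = 0.0214) and Jun (1.25 ± 0.29, adjusted p = 0.0236) rose. Jun was named after its values were seen. The arrays of Myc overlapped, with 9.45, 8.74 and 7.88 at 110 mg/kg, against 6.78, 6.83, 7.33, 7.25 and 7.93 in vehicle. Egr1, another transcription factor of this kind, went the other way with 7.93, 9.46 and 8.58 at 110 mg/kg, against 9.90, 10.15, 10.06, 10.61 and 9.47 in vehicle, a fall of 1.38 ± 0.29 (adjusted p = 0.0112). Replicate 2 lay barely below the lowest vehicle array. Leaving out 110 mg/kg replicate 1 left 1 called member, and the calls of Myc (adjusted p = 0.144), Jun (0.145) and Egr1 (0.0904) were all lost without it; Jun and Egr1 were lost without replicate 3 too (0.0525 and 0.0546) and Myc without replicate 2 (0.0727) or vehicle replicate 2 (0.0525). Leaving out vehicle replicate 2 or 110 mg/kg replicate 3 left 2 called members, and Jun was also lost without vehicle replicate 4 (0.0566).

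Lipid genes changed at single steps. Scd, the desaturase that makes monounsaturated fatty acids, had 9.08, 8.40 and 8.04 at 110 mg/kg, against 11.29, 11.82, 12.15, 10.24 and 10.92 in vehicle. All dosed arrays lay more than a whole log2 unit below the lowest vehicle array, and Scd fell by 2.78 ± 0.54 (adjusted p = 0.00617). Of 26 measured genes of fatty acid and triglyceride synthesis 2 rose and 2 fell, against 2.36% and 1.24% of all genes. The list's median was -0.16. Lpin1, a phosphatidate phosphatase of triglyceride synthesis, had 10.08, 9.44 and 9.96 at 110 mg/kg, against 11.39, 11.25, 11.40, 11.74 and 10.30 in vehicle, and fell by 1.39 ± 0.25 (adjusted p = 0.00383). Its paralog Lpin2 rose by 0.77 ± 0.16 (adjusted p = 0.0129), while the other probe set of Lpin2 measured 0.08. Thrsp, a lipogenic gene that thyroid hormone induces, rose by 0.86 ± 0.22 (adjusted p = 0.0362). It missed the threshold without 110 mg/kg replicate 1 (0.16) or 3 (0.13), without vehicle replicate 4 (0.0874) or 5 (0.0674), or with the mean of its probe sets (0.254). Without 110 mg/kg replicate 3, which also took the call of Lpin2, 2 members of the list were called. Fasn, the fatty acid synthase gene that feeds Scd, was not called (-0.18 ± 0.27, adjusted p = 0.797).

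Targets of PPAR alpha, the receptor of fatty acid oxidation, moved downward where they moved at all. Of 34 measured members 0 rose and 5 fell, with a median of -0.07; in limma's test 1.24% of all genes fell. Angptl4, a secreted inhibitor of lipoprotein lipase, had 9.56, 10.19 and 10.04 at 110 mg/kg, against 11.50, 11.62, 11.48, 11.52 and 10.87 in vehicle, and fell by 1.47 ± 0.27 (adjusted p = 0.00499). Pdk4, a kinase that spares glucose by blocking pyruvate dehydrogenase, had 8.87, 9.30 and 8.59 at 110 mg/kg, against 10.27, 10.26, 10.33, 10.63 and 9.85 in vehicle, and fell by 1.35 ± 0.27 (adjusted p = 0.00889, or 0.0679 without 110 mg/kg replicate 3). Plin2, a coat protein of lipid droplets, had 12.24, 12.32 and 12.16 at 110 mg/kg, against 12.98 to 13.53 in vehicle (median 13.30), with a change of -0.999 ± 0.19 (adjusted p = 0.00586). The other probe set of Plin2 measured -0.12 and was not called. The groups did not overlap for any of the 3 genes, which for Angptl4 and Pdk4 was a condition of being named. Of all genes tested, 5.28% lay wholly lower at 110 mg/kg. The peroxisomal enzyme gene Ehhadh (-0.42 ± 0.11, adjusted p = 0.0393) and Cpt1b (-0.47 ± 0.12, adjusted p = 0.038), a carnitine palmitoyltransferase gene, were the other 2, both named after their values were seen. Ehhadh was lost without 110 mg/kg replicate 1 (0.143) or 2 (0.176) or vehicle replicate 1, 2 or 4 (0.0624 to 0.0929), and Cpt1b without any one dosed array (0.102 to 0.122) or vehicle replicate 1, 3 or 4 (0.0768 to 0.0889). Cyp4a1, a classic target of the receptor, measured -0.56 ± 0.17 and missed the threshold (adjusted p = 0.0759). It passed under some alternatives, among them array weights (adjusted p = 0.0358). Without any one dosed array, or without vehicle replicate 1 or 4, 3 members were called.

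Cyp7a1 and Cyp8b1, genes of bile acid enzymes, both rose. Cyp7a1, which catalyses the rate-limiting step of bile acid production, had 12.94, 12.62 and 12.29 at 110 mg/kg, against 10.54, 9.74, 11.55, 11.82 and 11.38 in vehicle. The vehicle arrays spread over more than 2 log2 units, and the dosed arrays stood above them all. The rise was 3.06-fold (1.61 ± 0.38, adjusted p = 0.0246), but it was not called without 110 mg/kg replicate 1 (adjusted p = 0.115), 2 (0.074) or 3 (0.0526). Cyp8b1, which sets the share of cholic acid, had 13.26, 12.51 and 12.90 at 110 mg/kg, against 11.55 to 12.35 in vehicle (median 12.25), and rose by 0.83 ± 0.20 (adjusted p = 0.0246). Cyp8b1 missed the threshold without 110 mg/kg replicate 1 (0.15) or 3 (0.0874) and without vehicle replicate 2 (0.0542) or 3 (0.0558). In the list of 23 measured genes of bile acid synthesis and transport 4 rose and 1 fell, with a median of -0.03. Over all genes tested 2.36% rose and 1.24% fell. Atp8b1 (0.46 ± 0.12, adjusted p = 0.0414) and Amacr (0.36 ± 0.09, adjusted p = 0.0291), named after their values were seen, rose too. The phospholipid exporter gene Abcb4 fell by 0.44 ± 0.08 (adjusted p = 0.00383). Only 1 member was called without 110 mg/kg replicate 1 or without replicate 3, and 3 were called without replicate 2 or without vehicle replicate 2 or 3. Atp8b1 was lost without any one dosed array (0.0536 to 0.161) or vehicle replicate 1, 2 or 5 (0.0774 to 0.0982), and Amacr without 110 mg/kg replicate 1 (0.154) or 3 (0.0828) or vehicle replicate 3 or 4 (0.056 and 0.0652).

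**Figure D3:**
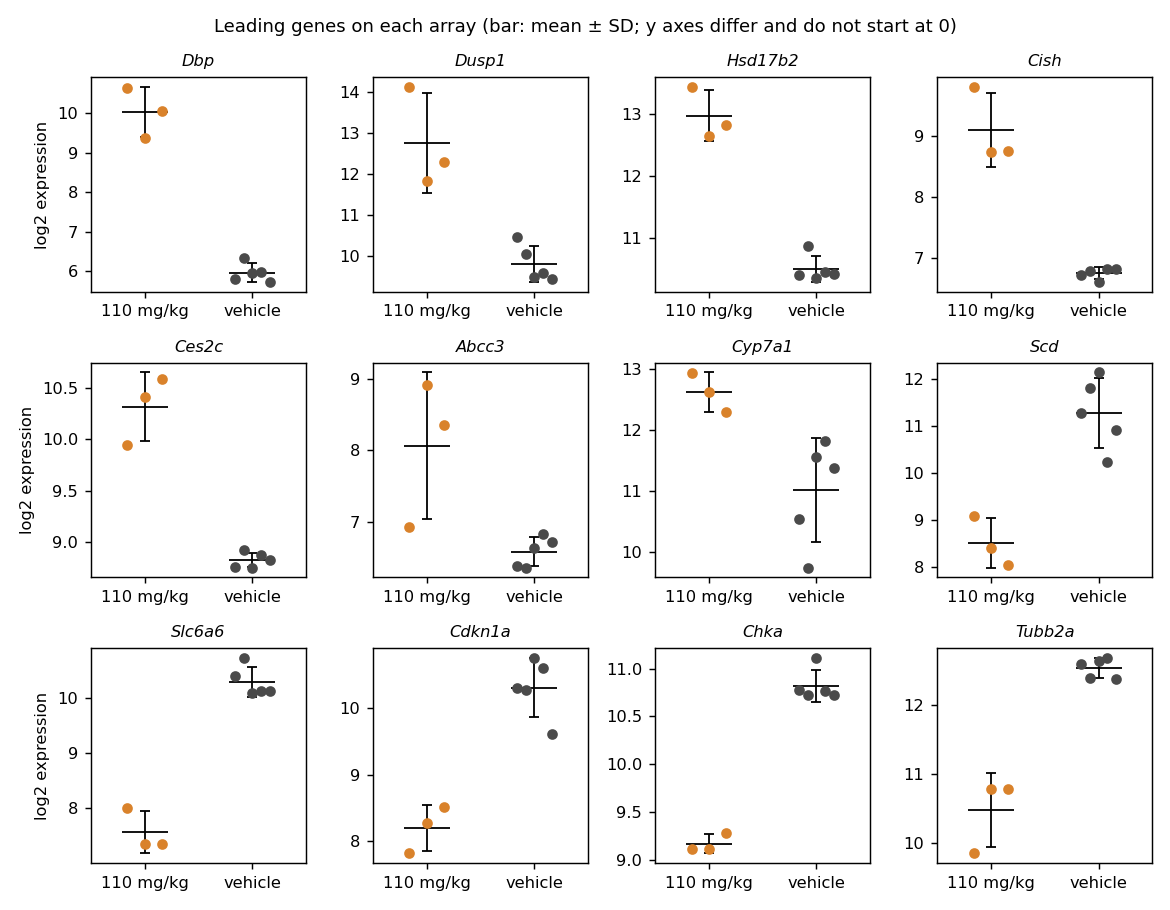
Log2 level of 12 leading genes on each array, 110 mg/kg (orange, 3 arrays) left of vehicle (grey, 5 arrays), with the mean and SD as black bars on y axes that differ between panels. All 12 genes were chosen from the largest changes among genes whose groups do not overlap, so the gap in each panel follows from that choice. Of the dosed arrays, 110 mg/kg replicate 1 is the highest for Dusp1 (14.13) and the lowest for Abcc3 (6.93).

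Targets of CAR and PXR were partly raised. Of 25 measured members 6 rose and 1 fell, against 2.36% and 1.24% of all genes, with a median of 0.14. Ces2c, a carboxylesterase, had 9.94, 10.41 and 10.59 at 110 mg/kg, against 8.76, 8.92, 8.75, 8.87 and 8.82 in vehicle, and rose 2.81-fold (1.49 ± 0.21, adjusted p = 0.000365). Abcc3, an efflux pump of conjugates toward blood, had 6.93, 8.91 and 8.36 at 110 mg/kg, against 6.38, 6.36, 6.63, 6.83 and 6.72 in vehicle, a rise of 1.48 ± 0.33 (adjusted p = 0.0168). Its replicate 1 barely exceeded the vehicle arrays, and the call was lost without 110 mg/kg replicate 2 (adjusted p = 0.115) or 3 (0.0928). The drug efflux pump gene Abcb1a rose by 1.01 ± 0.15 (adjusted p = 0.00083), the glucuronosyltransferase gene Ugt2b1 by 0.81 ± 0.13 (adjusted p = 0.00198) and Por, the electron donor of microsomal P450 enzymes, by 0.79 ± 0.16 (adjusted p = 0.00821, or 0.0731 without 110 mg/kg replicate 3 and 0.064 with the mean of its probe sets). The retinal dehydrogenase gene Aldh1a1 rose by 0.61 ± 0.17 with an adjusted p of 0.0478, a call lost without any 1 vehicle array or without 110 mg/kg replicate 2 or 3 (0.0716 to 0.224). Cyp2c22 fell by 0.39 ± 0.08 (adjusted p = 0.00633, or 0.0579 without 110 mg/kg replicate 1). Aldh1a1 and Cyp2c22 were named after their values were seen. Cyp3a23-3a1, a P450 gene that PXR drives, measured 0.36 ± 0.14 and was not called (adjusted p = 0.188). Without 110 mg/kg replicate 1 it measured 0.57 and was called (adjusted p = 0.0335). Without 110 mg/kg replicate 3, 4 members of the list were called.

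In the other foreign-compound lists the called share was near that of all genes. Of 28 measured NRF2 targets, genes of the oxidative stress response, 1 rose, which was Abcc3, and 0 fell, a share of 3.57% against 3.61% of all genes, with a median of 0.22. Of 21 glutathione transferases, 15 aldo-keto reductases and 9 AhR targets, limma called 0, and their medians were 0.06, 0.06 and -0.07; lists of this size would hold under 1 called gene at the share of all genes. The dosed arrays differed among themselves for several of these genes. Gsta3, a glutathione transferase, had 7.14, 9.33 and 9.0 at 110 mg/kg, against 7.78 to 8.13 in vehicle. Nqo1, a quinone reductase, had 8.35, 9.89 and 8.62 at 110 mg/kg, against 8.0 to 8.56 in vehicle. Akr7a3, an aflatoxin aldehyde reductase, had 11.44, 12.42 and 12.48 at 110 mg/kg, against 11.05 to 11.60 in vehicle. Replicate 1 lay within or below the vehicle range for all 3 genes while replicates 2 and 3 lay above it, and none was called (adjusted p = 0.588, 0.148 and 0.206). Cyp1a1, the P450 that AhR ligands induce, had 5.88, 6.04 and 6.11 at 110 mg/kg, against 5.51 to 5.84 in vehicle, and was not called (0.31 ± 0.34, adjusted p = 0.708).

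Several of the largest changes belonged to genes of other roles. Hsd17b2, which oxidises estradiol and testosterone to less active steroids, had 13.44, 12.65 and 12.83 at 110 mg/kg, against 10.39, 10.86, 10.34, 10.45 and 10.42 in vehicle. The groups were far apart, and the gene rose 5.58-fold (2.48 ± 0.20, adjusted p = 7.21e-07). Slc6a6, the taurine transporter, had 8.01, 7.35 and 7.35 at 110 mg/kg, against 10.41, 10.73, 10.09, 10.13 and 10.13 in vehicle, and fell by 2.73 ± 0.24 (adjusted p = 2.83e-06). Tubb2a, a beta-tubulin gene, had 9.85, 10.78 and 10.79 at 110 mg/kg, against 12.60, 12.40, 12.65, 12.69 and 12.39 in vehicle, and fell by 2.07 ± 0.24 (adjusted p = 6.52e-05). Slc6a6 and Tubb2a were lower on every dosed array, the first least so on replicate 1 and the second most so on it. Chka, the choline kinase that begins phosphatidylcholine synthesis, had 9.11, 9.11 and 9.28 at 110 mg/kg, against 10.78, 10.72, 11.11, 10.76 and 10.72 in vehicle, and fell by 1.65 ± 0.12 (adjusted p = 3.11e-07). Rises of 1.44 each were also found for the metallothionein gene Mt2A (± 0.29, adjusted p = 0.00763) and Chmp4c (± 0.22, adjusted p = 0.000997), a gene of the ESCRT-III membrane machinery. The rise of Mt2A was lost without 110 mg/kg replicate 1 (adjusted p = 0.0504). The vasopressin receptor gene Avpr1a (-1.19 ± 0.20), the galectin-like gene Lgalsl (-1.26 ± 0.16) and the phosphate transporter gene Slc34a2 (-1.45 ± 0.30) fell, the last no longer called without 110 mg/kg replicate 3 (adjusted p = 0.0812).

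Cdkn1a, the cell cycle inhibitor p21 and a p53 target, had 7.82, 8.27 and 8.51 at 110 mg/kg, against 10.31, 10.28, 10.76, 10.61 and 9.61 in vehicle. It was lower on every dosed array and fell by 2.11 ± 0.22 (adjusted p = 1.59e-05). Of 16 measured genes of the p53 response 4 rose and 1 fell, against 2.36% and 1.24% of all genes. The list's median was 0.0066, and Cdkn1a moved against the other called members. Bbc3, a gene that promotes cell death, rose by 0.61 ± 0.11 (adjusted p = 0.00499), and Sesn1, a stress sensor of nutrient signalling, rose by 0.47 ± 0.08 (adjusted p = 0.00335), although its other probe set measured -0.01 ± 0.10 and the mean of both was 0.23 (adjusted p = 0.0991). Gadd45a (1.13 ± 0.29, adjusted p = 0.038) and Mdm2 (0.38 ± 0.10, adjusted p = 0.0358), named after their values were seen, rose as well. Gadd45a was lost without 110 mg/kg replicate 1 (0.225) or 2 (0.0922) or any one of vehicle replicates 1 to 3 (0.055 to 0.0916), and Mdm2 without 110 mg/kg replicate 1 (0.147) or 3 (0.193) or any one of vehicle replicates 2 to 5 (0.057 to 0.0796). In the list 3 members were called without 110 mg/kg replicate 1 or without vehicle replicate 3. Of 36 measured cell cycle genes limma called 0, with a median of 0.15, and the proliferation marker Mki67 had 5.02, 6.20 and 5.58 at 110 mg/kg, against 4.64 to 5.97 in vehicle.

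Smaller groups of genes changed at single members, where 2.36% of all genes rose and 1.24% fell. In the list of endoplasmic reticulum and integrated stress genes, with 34 measured, 2 rose and 1 fell and the median was 0.07. Atf4 (0.46 ± 0.10, adjusted p = 0.0119) and Ddit3 (0.69 ± 0.15, adjusted p = 0.0121), transcription factors of that response, rose, and both were lost without 110 mg/kg replicate 3 (0.0912 and 0.0928), and Ddit3 also without replicate 1 (0.0672). Cth, the enzyme that releases cysteine from cystathionine, had 12.77, 12.63 and 12.66 at 110 mg/kg, against 13.36 to 13.73 in vehicle, and fell by 0.79 ± 0.16 (adjusted p = 0.00765). Cbs, which makes cystathionine, fell by 0.42 ± 0.11 (adjusted p = 0.0416), so that 2 of 44 genes of amino acid breakdown fell and 0 rose. Of 17 thyroid hormone response genes 3 rose, Thrsp, the receptor gene Thrb (0.53 ± 0.10, adjusted p = 0.00383, or 0.187 at 0.27 with the mean of its probe sets, the others of which measured -0.12 to 0.60) and the transporter gene Slc16a10 (0.50 ± 0.12, adjusted p = 0.032), while the deiodinase gene Dio1 was not called (0.07 ± 0.13). Of 24 acute phase and complement genes 2 rose, the interleukin-1 receptor gene Il1r1 (0.84 ± 0.19, adjusted p = 0.0169) and Hamp, the gene of the iron hormone hepcidin (0.35 ± 0.09, adjusted p = 0.0373). The other probe sets of Il1r1 measured 0.01 and 0.05, so its rise depends on the probe set. Of 20 cholesterol synthesis genes 1 rose, Stard4, which carries sterols between membranes (0.69 ± 0.14, adjusted p = 0.00683, or 0.0673 without 110 mg/kg replicate 3). Its other probe sets measured 0.11 and 0.07, and the mean of all was 0.29 (adjusted p = 0.148). The water channel gene Aqp8 fell by 0.46 ± 0.11 (adjusted p = 0.0225) beside Slc6a6 among 8 transporters of taurine, osmolytes and water. Calls of Cbs, Slc16a10, Il1r1, Hamp and Aqp8 were each lost without 110 mg/kg replicate 1 and without replicate 2 (adjusted p = 0.0565 to 0.208), and those of Cbs, Slc16a10, Hamp and Aqp8 also without 1 or more vehicle arrays. Slc16a10 was lost without 110 mg/kg replicate 3 as well (0.0796). Limma called 0 of 24 interferon, 18 heat shock and 11 heme genes, with medians of 0.15, 0.01 and 0.02.

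**Figure D4:**
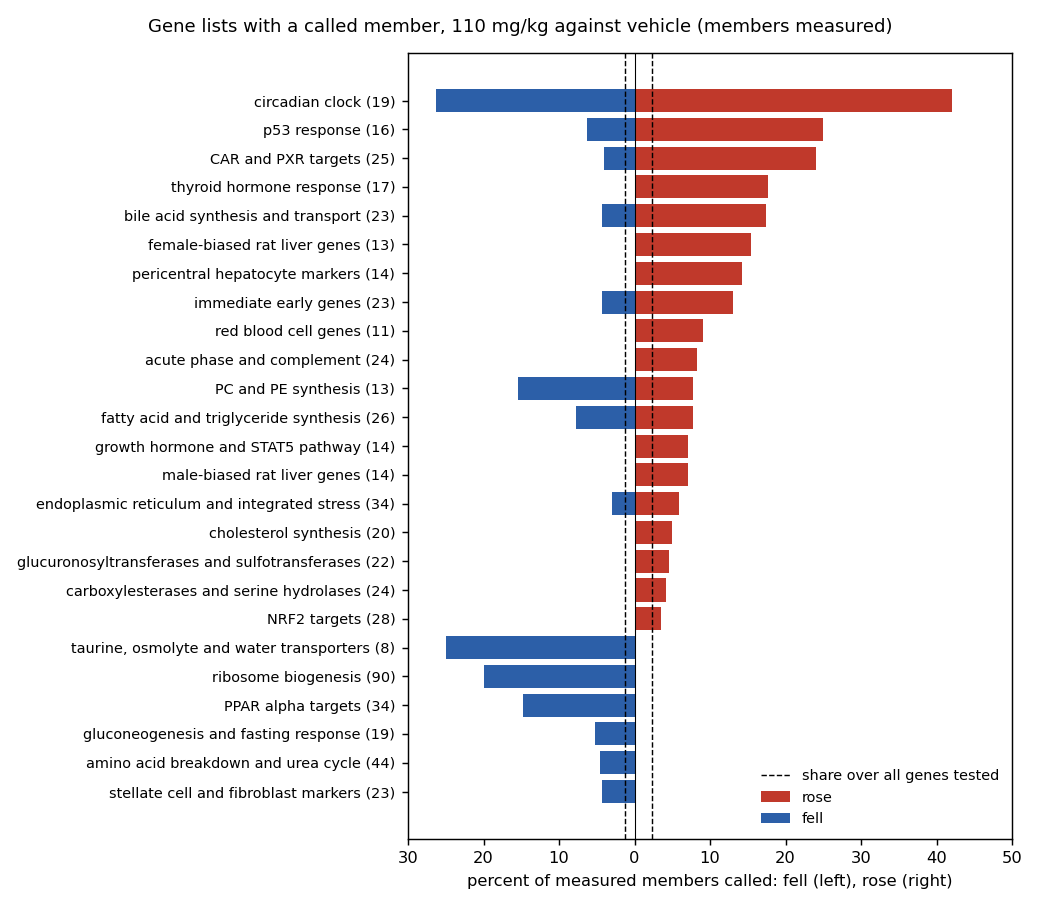
Percent of the measured members of each gene list that rose (red, right) or fell (blue, left) at 110 mg/kg against vehicle, for lists with at least 1 called member and with the number measured in parentheses. Dashed lines mark the shares over all genes tested, 2.36% that rose and 1.24% that fell; the clock list reaches furthest to the right, with 8 of 19 members.

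Markers of other liver cells were measured beside these changes. Among all genes tested 2.36% rose and 1.24% fell, and the median log2 change was -0.0046. At those shares lists of 9 to 23 genes would hold under 1 called gene, so 0 called says little. The mean level of 16 endothelial markers was 8.16 to 8.93 on the 110 mg/kg arrays and 8.67 to 8.96 on the vehicle arrays, and that of 16 Kupffer cell and macrophage markers was 9.60 to 9.95 on the 110 mg/kg arrays and 9.80 to 10.17 on the vehicle arrays. Limma called 0 of either list, with medians of -0.26 and -0.15, yet 14 of the endothelial and 15 of the Kupffer cell markers measured below 0. Replicate 3 had the lowest 110 mg/kg mean for endothelial cells (8.16), Kupffer cells (9.60) and stellate cells (7.57). Of 23 stellate cell and fibroblast markers 1 fell, the receptor gene Pdgfrb (-0.33 ± 0.09, adjusted p = 0.0416). The median was -0.17, and 20 of the 23 measured below 0. The call of Pdgfrb was lost without any one of the 3 dosed arrays or of vehicle replicates 1 to 4. In tissue RNA fewer cells of a type and less RNA per cell cannot be told apart. Of 18 lymphocyte and 9 bile duct markers 0 were called, with medians of -0.07 and -0.06. Of 11 red blood cell genes 1 rose, Nfe2, a transcription factor of blood cell precursors, with 7.41, 7.37 and 8.71 at 110 mg/kg, against 5.36 to 6.90 in vehicle (1.85 ± 0.42, adjusted p = 0.0193, or 0.132 without 110 mg/kg replicate 3), while the mean level of the 11 was 6.94 to 7.03 at 110 mg/kg and 6.81 to 7.07 in vehicle. The part of cell type content in the gene changes was not tested.

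The 110 mg/kg group was then set against its neighbouring doses in the same fit, in which the vehicle arrays enter only the estimate of the spread. Limma called 0 genes between 110 and 55 mg/kg and 0 between 110 and 220 mg/kg, where 387 genes (2.72%) and 417 genes (2.93%) had an unadjusted p under 0.05. Against 55 mg/kg the largest difference among the genes above was that of Dusp1, 1.71 ± 0.43 higher at 110 mg/kg (unadjusted p = 0.0008, adjusted p = 0.999). Abcc3 was 1.07 ± 0.37 higher (unadjusted p = 0.00907) and Slc6a6 was lower (-0.89 ± 0.27, unadjusted p = 0.00413) than at 55 mg/kg, and neither passed after adjustment (adjusted p = 0.999). Chka was lower at 110 than at 220 mg/kg (-0.79, unadjusted p = 1.55e-05, adjusted p = 0.22). These p-values do not show that the doses act alike.

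Between 110 and 881 mg/kg, a comparison added after seeing the data, 597 genes (4.2%) were called, 216 (1.52%) higher and 381 (2.68%) lower at 110 mg/kg, and 2854 (20.1%) had an unadjusted p under 0.05. The counts were 353 without 881 mg/kg replicate 2 and 191 without 110 mg/kg replicate 1, with 246 lower genes without 110 mg/kg replicate 3 and a split of 283 higher and 296 lower after repeated quantile normalization. The arrays of those groups fitted alone gave 21. Ces2c was lower at 110 mg/kg by 2.54 on the log2 scale (-2.54 ± 0.23, adjusted p = 2.0e-05) and Abcc3 likewise (-2.19 ± 0.37, adjusted p = 0.00229). Dusp1 (2.29 ± 0.43, adjusted p = 0.00538), Gadd45g (2.31 ± 0.54, adjusted p = 0.0196) and Bhlhe40 (1.34 ± 0.31, adjusted p = 0.0188) were higher at 110 than at 881 mg/kg. The difference of Dbp was 0.24 ± 0.30 and was not called (adjusted p = 0.704). Of the 513 genes called against vehicle, 68 (13.3%) differed between 110 and 881 mg/kg. For 21 the level at 881 mg/kg lay further in the direction of the change at 110 mg/kg. For the other 47 it lay back toward the vehicle level or past it. Amacr, which measured 0.36 at 110 and -0.25 at 881 mg/kg against vehicle, went past it. The calls and these differences share the 110 mg/kg arrays.

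Set side by side over the doses, all of which share the 5 vehicle arrays, the genes took several courses. The log2 change of Dbp was 3.74 at 55, 4.07 at 110, 3.77 at 220, 4.50 at 440 and 3.83 at 881 mg/kg. Ces2c changed by 1.18, 1.49, 2.14, 3.37 and 4.03 at the same doses, and Abcc3 by 0.41, 1.48, 2.49, 3.29 and 3.67. Dusp1 instead changed by 1.23, 2.94, 1.35, 0.50 and 0.66, and Cish by 1.65, 2.34, 1.82, 0.67 and 0.61. The change of Dusp1 was larger at 110 mg/kg than at the other doses, and only its difference from 881 mg/kg passed the test among those run. Slc6a6 changed by -1.84, -2.73, -2.58, -3.85 and -3.96, and Chka by -1.50, -1.65, -0.86, -1.55 and -1.24. In the clock list 9 of 19 members were called at 55, 13 at 110, 13 at 220, 13 at 440 and 8 at 881 mg/kg, where 2.81%, 3.61%, 3.43%, 11% and 19.5% of all genes were called at those doses.

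**Figure D5:**
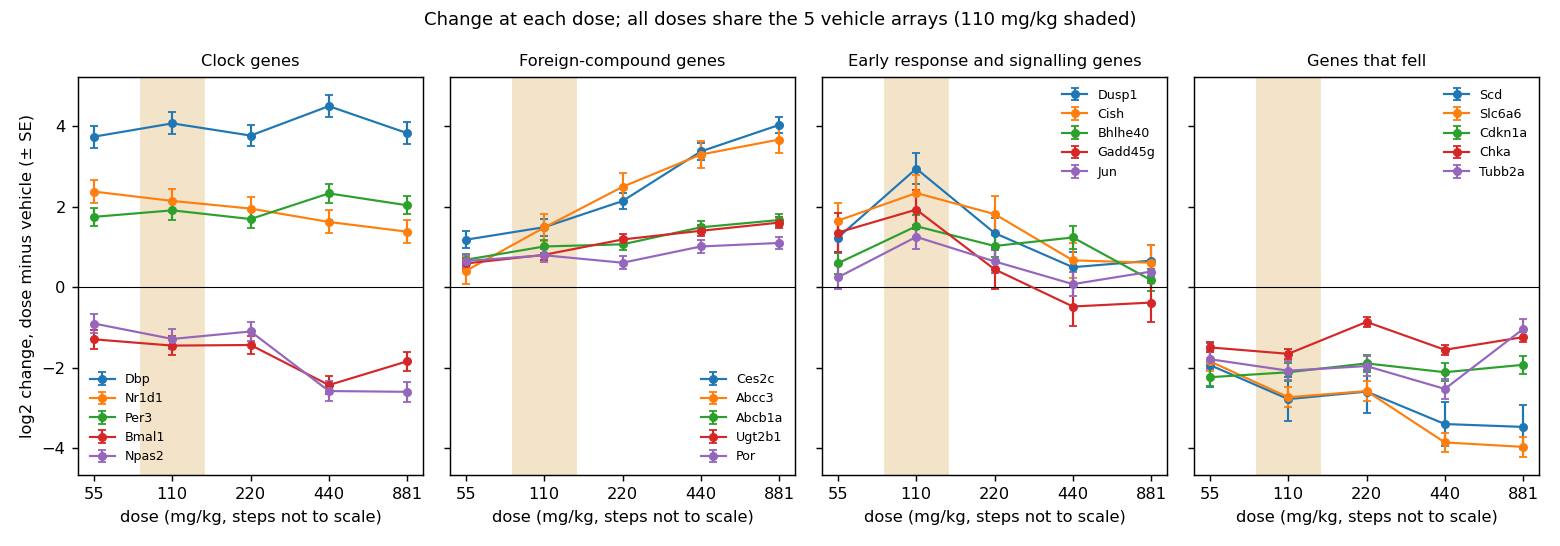
Log2 change against vehicle at 55, 110 (shaded), 220, 440 and 881 mg/kg for 20 genes in 4 panels, with the standard error of the model as the bar and dose steps drawn evenly. Dbp stays between 3.74 and 4.50, Ces2c climbs to 4.03 at 881 mg/kg, and Dusp1 peaks at 2.94 at 110 mg/kg.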

How the data were processed

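Liver RNA was measured on Affymetrix arrays, 1 per sample: 3 at 110 mg/kg, 5 for vehicle and 3 at each other dose. The authors deposited 1 log2 expression value per probe set, which the submitters' processing notes say was made with RMA (version not given). RMA in general equalises the distributions of arrays, so differences in total RNA are removed and low signals compressed. Of 31099 probe sets 57 controls were set aside. The platform annotation, which can be old, gave 1 symbol for 20826, several for 436 and none for 9780, and only the first kind was used; 20758 of these matched a RefSeq gene by ID. Of 14217 genes, 4525 had several probe sets. No 2 arrays shared more than 0.0225% of values.

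The 6 dose groups were fitted over all 20 arrays by lmFit and eBayes of limma 3.58.1, run in R 4.3.3, two-sided, with Benjamini-Hochberg adjustment over all genes. All groups shared 1 estimate of the spread, since a group of 3 arrays estimates its own badly. Python 3.11.15, pandas 2.3.3, NumPy 2.4.6, SciPy 1.17.1 and matplotlib 3.10.9 prepared tables, the permutation test and figures. The fit was tested on simulated data. Named genes were the 15 largest rises and falls among called genes whose dosed arrays lay beyond all vehicle arrays, up to 3 members of each list with the smallest p, and chosen marker genes of drug, clock and lipid biology whatever their result; 133 genes came from this rule, and 28 were added after their values were seen. Uncharacterised entries, 8 that rose and 2 that fell, were counted and not named. The comparison, the 35 gene lists (741 members, 633 of them measured) and the named genes were chosen with earlier results of these data known, and 3 lists were added later. Of 81 called genes that were named, 33 had another probe set. Among these 33, 25 had one that was not called, and 0 had one called the opposite way. Tef, Nr1d2 and Egfr each had a probe set that was not called (0.01, 0.19 and 0.11) beside another that was. Deviations from the group means correlated at r = 0.247, 0.089 and 0.043 between samples with the same replicate number, 1 to 3. Different numbers gave -0.214 to 0.031 among replicates 1 to 3, and at most 0.167 with vehicle replicates 4 and 5. The labels name no block, so numbers were not used as pairs in the main fit. Whether they mark a shared block was not settled, and a fit with them as a block was run as an alternative. Alternatives covered scaling, a filter on dim genes, the probe sets used, the arrays fitted, array weights, RNA quality, and leaving out each array of the groups compared or 881 mg/kg replicate 2; the arrays of other groups were not left out singly. Promoter sequences and coordinates are RefSeq's, build GRCr8.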

Additional observations from a re-analysis of the deposited data

Results flagged for a closer look

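Among 161 named genes, 15 had 1 vehicle array far from the other 4 in level (log2), by a gap over 0.71 of the group's whole range. Chance marks about 1 in 20 groups, and no cause was tested. The 110 mg/kg group, with 3 arrays, cannot be examined this way. Vehicle replicate 2 stood high for Nr1d1 (7.72, others 6.39 to 6.67), Nr1d2 (9.18, others 8.14 to 8.40) and Hsd17b2 (10.86, others 10.34 to 10.45), the side on which all 3 genes lay at 110 mg/kg, and low for Sesn1 (8.28, others 8.46 to 8.52). Vehicle replicate 1 was high for Cth (13.73, others 13.36 to 13.44), the cystathionine gamma-lyase gene, and for Socs2 (8.28, others 7.16 to 7.41) and Pon1 (13.97, others 13.74 to 13.80), and low for Akr1c14 (12.12, others 12.40 to 12.47). Vehicle replicate 3 was high for Chka (11.11, others 10.72 to 10.78), Insr (7.81, others 7.54 to 7.61) and Mcm7 (8.95, others 8.67 to 8.72) and low for Epcam (8.96, others 9.26 to 9.32). Vehicle replicate 4 was high for Gsta4 (11.53, others 11.39 to 11.43). Vehicle replicate 5 was low for Angptl4 (10.87, others 11.48 to 11.62) and high for Lyz2 (11.44, others 11.07 to 11.12).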

How the results depend on the processing

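Against vehicle, 513 genes were called at 110 mg/kg (336 rose, 177 fell). With array weights the counts were 800, 507 and 293, and with the RNA quality of beta-actin as a covariate 780 were called and 305 fell. Leaving out 1 array of the 2 groups gave 212 to 481 called genes, 126 to 301 rises and 82 to 184 falls. The replicate number as a block gave 356 called genes, 292 of them among the 513; between 110 and 220 mg/kg the block gave 1 called gene, which rose. Without the array 881 mg/kg replicate 2, 705 were called, 457 rises and 248 falls, and the other settings gave 447 to 563. Between 110 and 55 mg/kg and between 110 and 220 mg/kg, 0 genes were called when any 1 array of the groups compared was left out. Between 110 and 881 mg/kg, the arrays of those groups alone gave 21 called genes (13 higher, 8 lower), the fit without the array 881 mg/kg replicate 2 gave 353 (143 and 210), and leaving out 1 array gave 191 to 791 (78 to 297 higher, 113 to 494 lower). Among 2867 recomputed values of the named genes, 209 lost a call, 66 gained a call and 1 reversed. Per2 reversed to 0.70 with the mean of all probe sets of a gene (adjusted p = 0.0299), where its 2 probe sets differ. Of 81 called named genes, 34 kept their call under all 18 alternatives, Dbp, Dusp1, Scd, Hsd17b2 and Chka among them, and 47 lost it under at least 1; the cause of these losses was not tested. Signal near background limits what genes of low level can show, and with 3 dosed arrays 1 array can carry a call.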

Other observations

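Genes of ribosome biogenesis, a list added after the data were seen, were mostly lower at 110 mg/kg. They build ribosomal RNA and subunits in the nucleolus. Of 90 measured members 0 rose and 18 fell, against 2.36% and 1.24% of all genes. Below 0 measured 87 of the 90, and the median log2 change was -0.28 against -0.0046 over all genes. The mean level of the 90 genes was 8.15, 8.26 and 8.27 on the 110 mg/kg arrays, against 8.30 to 8.86 on the vehicle arrays, so the groups did not overlap but nearly touched. Nop58, a core protein of box C/D particles that guide RNA methylation, had 8.75, 9.23 and 9.12 at 110 mg/kg, against 9.67, 10.17, 10.57, 10.24 and 9.72 in vehicle, and fell by 1.04 ± 0.23 (adjusted p = 0.0139, or 0.0902 without 110 mg/kg replicate 1). Tsr1, a maturation factor of the small subunit, fell by 1.01 ± 0.18 (adjusted p = 0.00424), Gar1, a protein of the pseudouridylation particles, by 0.96 ± 0.22 (adjusted p = 0.0195, or 0.112 without 110 mg/kg replicate 1) and Mdn1, an ATPase of large-subunit maturation, by 0.81 ± 0.14 (adjusted p = 0.00259). The other probe set of Mdn1 measured -0.01 and was not called. Myc, which is known to induce such genes, rose in the same samples. The count was 5 without 110 mg/kg replicate 1, 9 without replicate 2, 7 without replicate 3, 9 without vehicle replicate 3 or 4, 29 without vehicle replicate 1, 31 after repeated quantile normalization and 33 with the RNA quality of beta-actin as a covariate. At 55, 110, 220, 440 and 881 mg/kg the list's median was -0.21, -0.28, -0.21, -0.15 and -0.11, all against the same vehicle arrays. These genes were named after their values were seen.

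Of 13 measured genes of phosphatidylcholine and phosphatidylethanolamine synthesis, also a list added later, 1 rose and 2 fell, with a median of -0.16. Over all genes tested 2.36% rose and 1.24% fell. Beside Chka its paralog Chkb had 9.20, 8.98 and 9.07 at 110 mg/kg, against 9.45 to 9.52 in vehicle, and fell by 0.40 ± 0.06 (adjusted p = 0.00158). Pcyt1a, the gene of the next and regulated step, was not called (-0.24 ± 0.09, adjusted p = 0.187). Chkb, Pcyt1a and the 3 genes that follow were named after their values were seen. Among receptors the epidermal growth factor receptor gene Egfr had 10.65, 11.43 and 11.20 at 110 mg/kg, against 11.96 to 12.25 in vehicle, and fell by 1.01 ± 0.20 (adjusted p = 0.00633, or 0.0622 without 110 mg/kg replicate 1). Insig2, a sterol sensor of the endoplasmic reticulum whose liver transcript is known to be rhythmic in mice, had 11.07, 11.08 and 11.04 at 110 mg/kg, against 11.84 to 12.09 in vehicle, and fell by 0.92 ± 0.14 (adjusted p = 0.000979). Of 14 growth hormone and STAT5 pathway genes only Cish was called, and Socs2, another STAT5 target, measured -0.41 ± 0.30 (adjusted p = 0.534). Of 13 measured genes known to be higher in female rat liver 2 rose and 0 fell, 9 measured below 0 and the median was -0.09. The lowest was the prolactin receptor gene Prlr (-0.79 ± 0.37, adjusted p = 0.297, not called). Of 14 measured genes known to be higher in male rat liver 1 rose, Hsd17b2, 9 measured below 0 and the median was -0.03. Cux2 (1.31 ± 0.32, adjusted p = 0.0262) and Trim24 (1.03 ± 0.26, adjusted p = 0.0347) were the female-biased genes that rose, both transcription regulators. Both were lost without 110 mg/kg replicate 1 (0.154 and 0.0977) or 2 (0.0648 and 0.177) or without vehicle replicate 2 or 4 (0.0518 to 0.0661). Trim24 was also lost without 110 mg/kg replicate 3 (0.0513) or vehicle replicate 1 (0.0695) or 3 (0.0598). Cux2 was lost with the mean of its probe sets too (0.0778).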
